A study of Mus musculus with 9 samples.

Results

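The 8 genes of the peripheral glial lineage followed here were Sox10, Foxd3, Erbb3, Cdh19, Pou3f1, Egr2, Pmp22 and Mbp. They were taken by symbol from the 30406 genes shared by the feature tables of all 9 libraries, and each of the 8 symbols matched 1 gene. The libraries were made with 10x Genomics 3′ chemistry, which counts unique molecular identifiers (UMI) at the 3′ end of messenger RNA, from mouse embryonic fibroblast (MEF) cultures on their way to induced neurons (iNs). WT, Per1-/- and Per2-/- cultures each gave 1 library on day 4, 1 on day 7 and 1 on day 10. Cultures of every genotype, WT included, had received the BAM genes (among them Brn2, also called Pou3f2, and Myt1l) on doxycycline-inducible lentiviruses. Per the study's methods the mutants carried the alleles Per1tm1Drw and Per2tm1Drw, and MEFs were prepared from pooled mid-gestation embryos after removal of the head and heart, so that cells other than fibroblasts could be present from the start. Days served as the repeats of a genotype and genotypes as the repeats of a day. The p-values therefore measure the spread between these libraries, not between separate cultures of 1 condition.

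Schwann cells arise from the neural crest and wrap the axons of peripheral nerves. The transcription factors Sox10 and Foxd3 mark the crest and its glial descendants, and Sox10 stays on throughout the glial lineage. Erbb3 is the receptor through which neuregulin from axons keeps Schwann cell precursors alive, with Erbb2 as its signaling partner, and Cdh19 is a cadherin of Schwann cell precursors. When a Schwann cell starts to make myelin, Pou3f1 (also called Oct6) comes on first and Egr2 (also called Krox20) follows and drives the myelin genes, among them Pmp22 and Mbp. Several of these genes are used elsewhere as well. Pmp22 is also made by many dividing and adhesive cells, Mbp transcripts that lack the classic myelin form are made by neurons and blood cells, and Egr2 is an early response gene of macrophages and fibroblasts.

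On GRCm38, Sox10 lies on the minus strand at chr15:79154908-79165240, Foxd3 on the plus strand at chr4:99656299-99658622, Erbb3 on the minus strand at chr10:128567523-128589652, Cdh19 on the minus strand at chr1:110888326-110977584 and Pou3f1 on the plus strand at chr4:124656807-124660655. Egr2 at chr10:67535475-67542188 and Pmp22 at chr11:63128982-63159547 lie on the plus strand. RefSeq promoter windows on GRCm38.p6 were at hand for 3 of the 8 genes. The table held 5 overlapping or neighbouring windows for Egr2, 4 for Pmp22 and 1 for Foxd3. Of these, 4 windows of 250 bases before a start site are printed, for Egr2 one of those with a motif match, because Egr2 and Pmp22 were called higher late in the culture in Schwann-like cells and Foxd3 was not, and because Pmp22 is known to use alternative first exons, of which the upstream one is the form of Schwann cells. Capitals mark a match to a searched motif.
Egr2, chr10:67537619-67537868, plus strand: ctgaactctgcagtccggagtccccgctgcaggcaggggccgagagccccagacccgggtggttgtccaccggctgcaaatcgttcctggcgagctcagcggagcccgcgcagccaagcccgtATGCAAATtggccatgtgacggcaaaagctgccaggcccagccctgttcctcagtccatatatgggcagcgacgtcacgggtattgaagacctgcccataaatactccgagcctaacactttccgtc
Pmp22, the first start, chr11:63128732-63128981, plus strand: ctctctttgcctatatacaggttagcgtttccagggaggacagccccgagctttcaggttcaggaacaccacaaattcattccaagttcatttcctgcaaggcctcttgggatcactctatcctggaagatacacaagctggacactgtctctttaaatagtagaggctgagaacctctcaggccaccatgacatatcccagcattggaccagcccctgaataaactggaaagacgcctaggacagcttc
Pmp22, the third start, chr11:63132319-63132568, plus strand: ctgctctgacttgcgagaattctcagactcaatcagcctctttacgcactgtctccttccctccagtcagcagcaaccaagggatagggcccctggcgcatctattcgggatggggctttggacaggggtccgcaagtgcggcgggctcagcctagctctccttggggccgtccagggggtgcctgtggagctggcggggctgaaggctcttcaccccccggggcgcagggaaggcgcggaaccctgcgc
Foxd3, chr4:99656049-99656298, plus strand: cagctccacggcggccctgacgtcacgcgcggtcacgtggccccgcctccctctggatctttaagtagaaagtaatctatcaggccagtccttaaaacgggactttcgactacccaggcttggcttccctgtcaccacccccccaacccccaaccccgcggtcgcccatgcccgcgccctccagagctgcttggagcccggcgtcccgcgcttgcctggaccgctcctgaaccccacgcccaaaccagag
The printed Egr2 window held 1 match to the POU octamer ATGCAAAT, on the gene's strand and 127 bases before the start, a motif of the family to which Pou3f1 and the transduced Pou3f2 belong. The same octamer lay in 3 of the 5 Egr2 windows, which overlap, and in neither of the 2 windows farther upstream, of which the first, ending at chr10:67535498, held a match to the EGR motif GTGGGCG on the opposite strand, 31 bases before its start. The octamer was found in 1.60% of 32817 promoter windows of the same length searched on both strands. The 4 Pmp22 windows and the Foxd3 window held no match to the octamer, to either SOX motif searched (ACAAAG, in 16.5% of windows, and ACAATG, in 10.7%) or to the EGR motif (in 7.02%), and no matches overlapped. A match describes letters only, and 3′ counts do not show which start site a transcript used.

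Several facts of the libraries bear on the values that follow. Total UMI per library ran from 126625215 to 353198559, and WT on day 10 was shallow, with a median of 3552 UMI per barcode against 16135 to 25795 in the other 8. Barcode sequences found in more than 1 library numbered 1537, and pairs of libraries shared 13 to 365 of them with a median of 39. Of 95603 barcodes, 73557 cells were kept. The 3′ counts of the deleted genes were not lower in their own mutants. As CPM, which scales UMI to a common total per library, Per1 was at 9.15 to 10.3 in Per1-/- against 6.31 to 7.72 CPM elsewhere, and Per2 at 4.98 to 6.41 CPM in Per2-/- against 2.57 to 3.16 CPM elsewhere, and 3′ tags outside a deleted part check nothing about its loss. The day 10 libraries were counted with another feature table and Cell Ranger version, which cannot be told apart from day 10 itself.

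Cells were clustered without the 8 genes and without 71 further genes of the lineage, so that these genes took no part in naming. Of 28 clusters, 2 were called Schwann-like from 8 markers, among them S100b, Gfra3, Art3, Sostdc1, Col28a1 and Fxyd3, and held 2610 of the 73557 cells. The larger held 2166 cells and the smaller 444. The smaller was cycling, with Mki67 at 883 CPM against 5.10 CPM and Top2a at 1337 CPM against 12.2 CPM. It held 34 of 111 Schwann-like cells in WT, 29 of 118 in Per1-/- and 28 of 130 in Per2-/- on day 4, and 23 of 229, 31 of 337 and 169 of 1014 on day 10, so the mix of both clusters differed between the days. In the larger cluster alone, an alternative added after seeing the data, the log2 differences from day 4 to day 10 were 3.97 for Mbp (edgeR, adjusted p = 0.00069), 1.27 for Pmp22 (adjusted p = 0.0025) and 2.15 for Pou3f1 (adjusted p = 0.0041), and Egr2 gave no value. All 8 naming markers reached a median of 5 CPM over the libraries in Schwann-like cells, and their summed level was 1034 to 1225 CPM on day 4 and 1201 to 1595 CPM on day 10. Of 11 oligodendrocyte markers, Aspa, Gpr17 and Cldn11 reached 5 CPM, and the defining markers Olig2 and Mobp were at 0 in all 9 libraries. Of 7 melanocyte markers only Mitf reached 5 CPM, and Mlana and Slc45a2 were at 0.

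Sox10, Foxd3, Erbb3 and Cdh19 were found mostly in Schwann-like cells. In CPM of summed UMI per library, Sox10 was at 408 to 579 (median 496) in Schwann-like cells, and the next class by median was skeletal muscle-like cells at 1.11 to 6.34 (median 3.98). Foxd3 was at 251 to 364 CPM (median 308), with neuron-like cells next at a median of 0.823 CPM. Erbb3 was at 253 to 341 CPM (median 284) and again neuron-like cells came next, at 1.15 CPM. Cdh19 was at 246 to 511 CPM (median 403), with astrocyte-like cells next at 1.94 CPM. For each of these 4 genes the lowest Schwann-like library lay above the highest library of any other class. Schwann-like cells were 3.55% of the cells and gave 91.6% of the Sox10 UMI, 94.4% of the Foxd3 UMI, 91.4% of the Erbb3 UMI and 80.4% of the Cdh19 UMI.

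**Figure D1:**
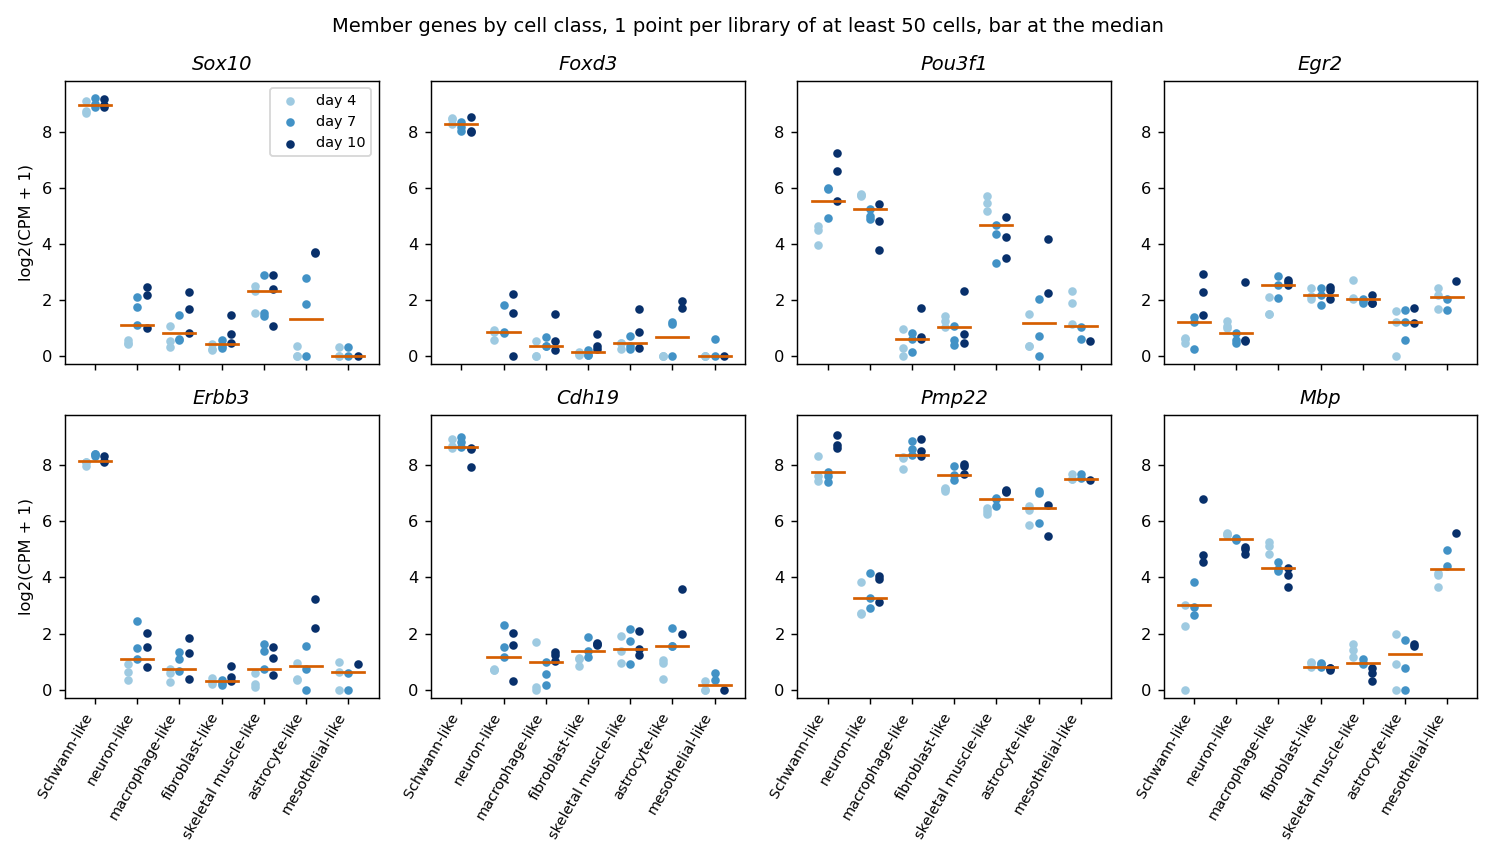
Level of each of the 8 genes by cell class, as log2(CPM + 1) of UMI summed per class and library, with 1 point for each library of at least 50 cells coloured by day and a bar at the median over libraries. Sox10, Foxd3, Erbb3 and Cdh19 stand apart in Schwann-like cells, while Pmp22 and Mbp are as high or higher in macrophage-like cells by median.

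The remaining 4 genes were shared with other classes. Pou3f1 had medians of 45.5 CPM in Schwann-like, 36.6 CPM in neuron-like and 24.5 CPM in skeletal muscle-like cells, and these 3 ranges overlapped. Egr2 was low everywhere, at a median of 4.83 CPM in macrophage-like, 3.48 CPM in fibroblast-like and 1.33 CPM in Schwann-like cells, with overlapping ranges. The order for Pmp22 was macrophage-like (330 CPM), Schwann-like (216 CPM), fibroblast-like (198 CPM), mesothelial-like (182 CPM), skeletal muscle-like (111 CPM), astrocyte-like (88.0 CPM) and neuron-like (8.73 CPM). The first 4 overlapped their neighbours, and neuron-like cells lay below every other class. For Mbp, neuron-like cells had the highest median at 40.1 CPM, followed by macrophage-like at 19.2 CPM, mesothelial-like at 18.7 CPM and Schwann-like at 7.04 CPM, each overlapping the next. Neuron-like cells gave 44.9% of the Mbp UMI, macrophage-like cells 27.0% and Schwann-like cells 8.88%. Of the UMI of all genes these classes gave 7.19%, 9.48% and 2.26%, so each gave more of the Mbp than of all UMI. The Schwann-like share of the Mbp UMI changed with the days, from 0 to 0.927% in the day 4 libraries and 1.64 to 3.23% in those of day 7 to 14.9% (WT), 35.1% (Per1-/-) and 29.4% (Per2-/-) on day 10. Fibroblast-like cells gave 55.4% of the Pmp22 UMI and 61.0% of the Egr2 UMI, beside 53.3% of the UMI of all genes.

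The genes differed as much in how many Schwann-like cells held them. Each cell was thinned to 10000 UMI, which left 1888 Schwann-like cells and left out 722 shallower ones. Sox10 had a UMI in 97.9% of these cells, Erbb3 in 91.5%, Cdh19 in 90.9% and Foxd3 in 88.7%, while fibroblast-like cells thinned in the same way, which should lack them, gave 0.309%, 0.211%, 1.20% and 0.101%. All 4 were present together in 73.8% of the Schwann-like cells, and 2 cells had none of them. Pmp22 was in 78.6% of Schwann-like cells, with 76.7% of fibroblast-like cells and 92.1% of macrophage-like cells. By library it lay below the fibroblast-like share in 6 of 9, as in Per1-/- on day 7 (58.6% against 85.1%), and above it in WT on day 4 and in both mutants on day 10, as in Per2-/- (92.3% against 85.6%). Pou3f1 was in 32.5% (fibroblast-like 0.771%, neuron-like 18.1%). Mbp was in 12.0% (fibroblast-like 0.774%, macrophage-like 15.9%, neuron-like 28.8%) and Egr2 in 1.59%, or 30 cells (fibroblast-like 3.04%, macrophage-like 3.68%). These pooled shares hide differences between libraries. Over the 9 libraries the Egr2 share ran from 0 to 3.23% in Schwann-like cells and overlapped the range of fibroblast-like (2.21 to 4.03%), macrophage-like (0.725 to 4.48%) and neuron-like cells (0 to 1.32%). The Mbp share of Schwann-like cells lay below that of macrophage-like cells in 7 libraries, as in WT on day 4 (2.78% against 27.5%), and above it in Per1-/- (26.3% against 14.2%) and Per2-/- (19.5% against 10.6%) on day 10. Median depths before thinning were 12832 UMI in Schwann-like, 22670 UMI in fibroblast-like and 22072 UMI in macrophage-like cells. Before thinning the shares were 98.8%, 94.3%, 92.7% and 91.5% for Sox10, Erbb3, Cdh19 and Foxd3, and 83.0%, 40.5%, 13.3% and 2.22% for Pmp22, Pou3f1, Mbp and Egr2.

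Over the whole culture Sox10, Foxd3, Erbb3, Cdh19 and Pmp22 rose from day 4 to day 10. Sox10 was at 5.03, 4.28 and 7.22 CPM in WT, Per1-/- and Per2-/- on day 4, at 10.3, 8.53 and 11.485 CPM on day 7 and at 20.6, 13.9 and 39.0 CPM on day 10. Foxd3 was at 3.42 to 3.95 CPM on day 4 and 6.82 to 24.6 CPM on day 10, Erbb3 at 2.79 to 3.43 CPM and 7.91 to 19.4 CPM, Cdh19 at 5.06 to 7.76 CPM and 11.97 to 19.0 CPM, and Pmp22 at 104 to 123 CPM and 191 to 278 CPM. For these 5 genes no day 10 library overlapped a day 4 library. By edgeR's quasi-likelihood test with Benjamini-Hochberg adjustment over 18786 genes, Sox10 rose by 2.11 ± 0.20 on the log2 scale (SE derived from the F statistic of the fit over all libraries, 3 libraries per day, adjusted p = 0.00039) from day 4 to day 10, Erbb3 by 2.08 ± 0.20 (adjusted p = 0.00046), Foxd3 by 1.79 ± 0.30 (adjusted p = 0.0057), Cdh19 by 1.41 ± 0.11 (adjusted p = 0.00018) and Pmp22 by 1.05 ± 0.13 (adjusted p = 0.0015). These were 5 of the 8 genes, where 22.6% of all genes tested were called in either direction and 13.7% were called higher. Mbp, Pou3f1 and Egr2 were not called, and Pou3f1 was at 9.82 to 10.7 CPM on day 4 and 4.15 to 17.0 CPM on day 10. Between days 4 and 7, Erbb3 (1.10), Sox10 (0.96), Pmp22 (0.84) and Cdh19 (0.79) rose, 4 of 8 against 9.75% of all genes in either direction and 6.73% higher, and the call of Sox10 was lost in 6 of 17 alternatives. Between days 7 and 10, Sox10 (1.15, adjusted p = 0.030) and Cdh19 (0.61, adjusted p = 0.037) rose, against a background of 1.60% in either direction and 1.40% higher. Those 2 calls were lost in 7 and in 10 of 17 alternatives.

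A whole-culture level joins the number of Schwann-like cells with the level per cell, and the number rose. Schwann-like cells were 1.40% (95% Clopper-Pearson interval 1.15 to 1.68) of WT cells, 1.23% (1.02 to 1.47) of Per1-/- cells and 1.69% (1.41 to 2.001) of Per2-/- cells on day 4. The shares of day 7 were 2.53%, 2.72% and 3.13%. Those of day 10 were 4.07% (3.57 to 4.62), 4.01% (3.60 to 4.45) and 9.64% (9.08 to 10.2). Every genotype thus rose at each step, and Per2-/- on day 10 stood above all other libraries. The WT share of day 10 compares less well with the rest. In that library 55.4% of barcodes passed the quality limits, against 86.1 to 94.5% elsewhere, and 2321 of 5625 cells had no class name. Its Schwann-like cells held 83.0% of the Sox10 UMI of the culture, against 93.7% in Per2-/- on day 10. The effect of this on its share was not tested. The mean slope was 0.745 percentage points per day (exact two-sided permutation of days within genotypes, p = 0.0093, the smallest of 216 arrangements, adjusted p = 0.037 over 4 comparisons), and 0.463 without Per2-/- on day 10. Per2-/- exceeded the mean of the other genotypes by 2.16 percentage points (exact permutation of genotypes within days, p = 0.037, the smallest of 27 arrangements, adjusted p = 0.074). With 27 arrangements and 4 comparisons no genotype could have reached a lower adjusted p, so this test cannot decide whether Per2-/- differed. Counting instead every cell with UMI of at least 3 naming markers gave 1.27 points (exact permutation, adjusted p = 0.37). That count was made without thinning and so depends on depth. On day 4 Schwann-like cells had medians of 16283 UMI in WT, 20654 UMI in Per1-/- and 13275 UMI in Per2-/-. Among all UMI of a library, Schwann-like cells gave 0.918 to 1.24% in the day 4 libraries, 1.67 to 2.13% in those of day 7 and 2.54 to 6.48% in those of day 10. These intervals cover counting error only.

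**Figure D2:**
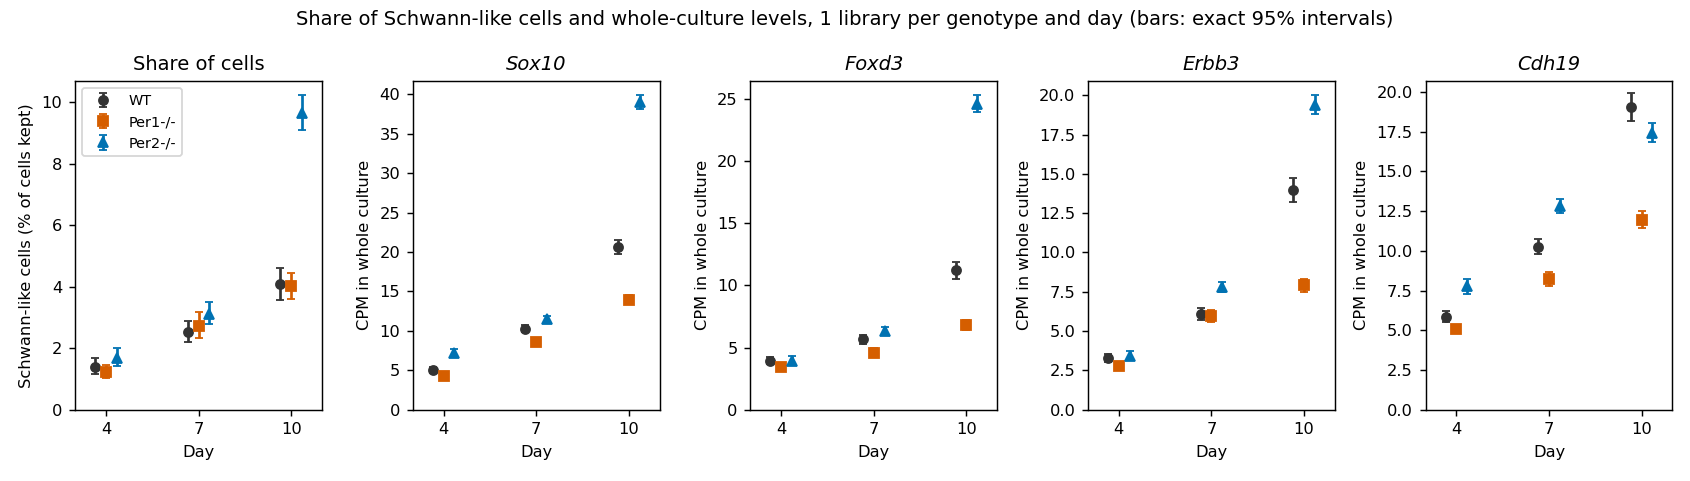
Share of Schwann-like cells (percent of cells kept, left) and whole-culture level in CPM of Sox10, Foxd3, Erbb3 and Cdh19 on days 4, 7 and 10, 1 point per genotype and day with exact 95% intervals for counting error. Shares and levels rise with the days in each genotype, and Per2-/- on day 10 is highest for the share (9.64%), Sox10 (39.0 CPM), Foxd3 and Erbb3.

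Within Schwann-like cells the genes of lineage identity were called on no pair of days. Sox10 was at 420.4, 408 and 539.8 CPM on day 4 (WT, Per1-/- and Per2-/-), at 579, 464 and 504 CPM on day 7 and at 473, 496 and 564 CPM on day 10. The 3 days overlapped throughout. From day 4 to day 10 Sox10 differed by 0.17 ± 0.14 (log2, SE, adjusted p = 0.42 by edgeR over 11411 genes), with 0.12 to 0.34 over 20 alternatives. Foxd3 was at 344, 359 and 308 CPM on day 4, at 323, 259 and 284 CPM on day 7 and at 257, 251 and 364 CPM on day 10, with Per2-/- highest on day 10 and the other genotypes lower. Its difference was -0.22 ± 0.17 (adjusted p = 0.39), and it was called lower without Per2-/- on day 10 (-0.47, adjusted p = 0.048).

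Among the receptor and adhesion genes, Erbb3 was at 273, 277 and 253 CPM on day 4, 336, 323 and 341 CPM on day 7 and 324, 284 and 279 CPM on day 10. Day 7 lay above day 4 in all 3 genotypes, by 0.30 ± 0.10 on the log2 scale (adjusted p = 0.20), and day 10 against day 4 gave 0.14 ± 0.10 (adjusted p = 0.39). Cdh19 was at 414, 395 and 491 CPM on day 4, 511, 403 and 455 CPM on day 7 and 393, 384 and 246 CPM on day 10. The day 10 libraries lay below those of day 4 in each genotype, most of all in Per2-/-, with a difference of -0.37 ± 0.17 (adjusted p = 0.17). Erbb2, the partner of Erbb3, was at 16.3 to 24.3 CPM in Schwann-like cells over the 9 libraries, above the 11.2 to 16.2 CPM of fibroblast-like cells. Their ligand Nrg1 was at a median of 1.21 CPM in Schwann-like cells against 42.5 CPM in mesothelial-like, 28.7 CPM in neuron-like and 18.1 CPM in fibroblast-like cells.

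Genes of the step into myelination rose in the same cells. Pou3f1 was at 14.6, 23.9 and 21.6 CPM on day 4 (WT, Per1-/-, Per2-/-), at 60.3, 29.4 and 62.7 CPM on day 7 and at 45.5, 94.7 and 151 CPM on day 10. All day 10 libraries lay above all day 4 libraries, and WT was the lowest of the 3 genotypes on day 10. Pou3f1 rose by 2.19 ± 0.37 on the log2 scale from day 4 to day 10 (adjusted p = 0.0048), and the call held in all 20 alternatives, with 2.58 without the shallow WT library of day 10 and 1.86 without Per2-/- on day 10. Thinned shares of Pou3f1-positive cells ran from 8.33 to 15.5% in the day 4 libraries, from 19.3 to 34.1% in those of day 7 and from 29.2 to 46.8% in those of day 10. Pou3f2, one of the transduced factors and a relative of Pou3f1, was at a median of 50.3 CPM (15.1 to 89.6) in Schwann-like cells against 2305 CPM in neuron-like cells. In Schwann-like cells Pou3f2 was also higher late, at 15.1, 37.2 and 26.6 CPM on day 4 (WT, Per1-/-, Per2-/-) and 89.6, 89.5 and 59.6 CPM on day 10. Myt1l, another transduced factor, was at 1.41 CPM in Schwann-like cells against 104 CPM in neuron-like cells.

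Egr2 rested on few molecules. Day 4 held 1 UMI in each Schwann-like sum, day 7 held 4, 4 and 1 UMI (WT, Per1-/-, Per2-/-) and day 10 held 6, 28 and 47 UMI, 93 in all. Levels were 0.503, 0.379 and 0.555 CPM on day 4, 1.33, 1.63 and 0.177 CPM on day 7 and 1.72, 6.59 and 3.80 CPM on day 10. All day 10 values lay above those of day 4, but the exact Poisson intervals of WT overlapped (0.0127 to 2.80 and 0.631 to 3.74 CPM). Egr2 was called higher on day 10 than on day 4 (3.13 ± 0.82 on the log2 scale, adjusted p = 0.028). The call was lost in 6 alternatives, namely DESeq2 (adjusted p = 0.065), limma-voom (0.062), doublets kept (0.076), leaving out WT on day 4 (0.071) or Per1-/- on day 4 (0.18), and every cell with at least 3 naming markers in place of the clusters (log2 change 1.07, adjusted p = 0.34), and in 4 alternatives Egr2 did not pass the filter on low counts. In Per1-/- on day 10 the 28 UMI came from 10 cells.

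The myelin protein genes rose as well. Pmp22 was at 320.3, 195 and 171 CPM on day 4, at 216, 168 and 194 CPM on day 7 and at 395, 541 and 424 CPM on day 10. The day 10 libraries lay above the libraries of both earlier days, and the WT library of day 4 was high among those of its day. Pmp22 rose by 1.03 ± 0.21 from day 4 to day 10 (log2, adjusted p = 0.011) and by 1.27 ± 0.21 from day 7 to day 10 (adjusted p = 0.010). The first call was lost without Per1-/- on day 4 (0.89, adjusted p = 0.053) or on day 10 (0.80, adjusted p = 0.062), and the second in 5 of 20 alternatives.

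Mbp, at chr18:82475146-82585637 on the plus strand, had the largest log2 change of the 8 genes in Schwann-like cells. The day 4 sums held 14, 10 and 0 UMI (WT, Per1-/-, Per2-/-), those of day 7 held 16, 33 and 38 UMI and those of day 10 held 79, 470 and 333 UMI. These gave 7.04, 3.79 and 0 CPM, then 5.33, 13.5 and 6.71 CPM, then 22.6, 111 and 26.9 CPM. The 0 of 1802560 UMI in Per2-/- on day 4 allows up to 1.66 CPM (3 counts). Every day 10 library lay above every earlier one, and Per1-/- on day 10 was the highest. Mbp rose by 3.77 ± 0.54 from day 4 to day 10 (log2, adjusted p = 0.0020), a call that held in all 20 alternatives (2.88 to 5.0), and by 2.44 ± 0.41 from day 7 to day 10 (adjusted p = 0.011), a call lost in 7 of 20. Thinned shares of Mbp-positive cells were 2.78%, 2.59% and 0% in the day 4 libraries (0 of 105 cells, which allows a share of cells with a UMI of up to 2.86%), 3.41%, 4.83% and 5.80% in those of day 7 and 14.3%, 26.3% and 19.5% in those of day 10.

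In Per1-/- on day 10 much of the Mbp came from few cells. One cell of 16393 UMI held 151 of the 470 Mbp UMI (32.1%), and the 10 highest cells held 71.3%, while 84 of 337 cells had at least 1. That cell also held 122 UMI of Pmp22, 16 of Prx and 14 of Mag, which both encode myelin proteins, with 3 UMI of Sox10, 8 of Erbb3, 2 of Egr2 and 0 of Foxd3, Cdh19 and Pou3f1, and 2 UMI over the whole macrophage list. The second highest cell held 66 Mbp and 52 Pmp22 UMI in 22213. It held 4 UMI of Sox10, 4 of Erbb3 and 1 of Foxd3. The next 3 Schwann-like cells by Mbp UMI over all libraries, from Per1-/-, Per2-/- and Per1-/- on day 10, held 29, 26 and 25 Mbp UMI with 4, 13 and 6 UMI of Foxd3 and 18, 9 and 7 of Sox10, so low Foxd3 was not shared by these 5 cells, which were described after their values were seen. Without the highest cell the library was at 75.4 CPM, Mbp rose by 3.48 ± 0.50 from day 4 to day 10 (adjusted p = 0.0019) and the call of Pmp22 held as well. In Per2-/- on day 10 the 10 highest cells held 27.9% of the Mbp UMI, and 164 of 1014 cells had at least 1.

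**Figure D3:**
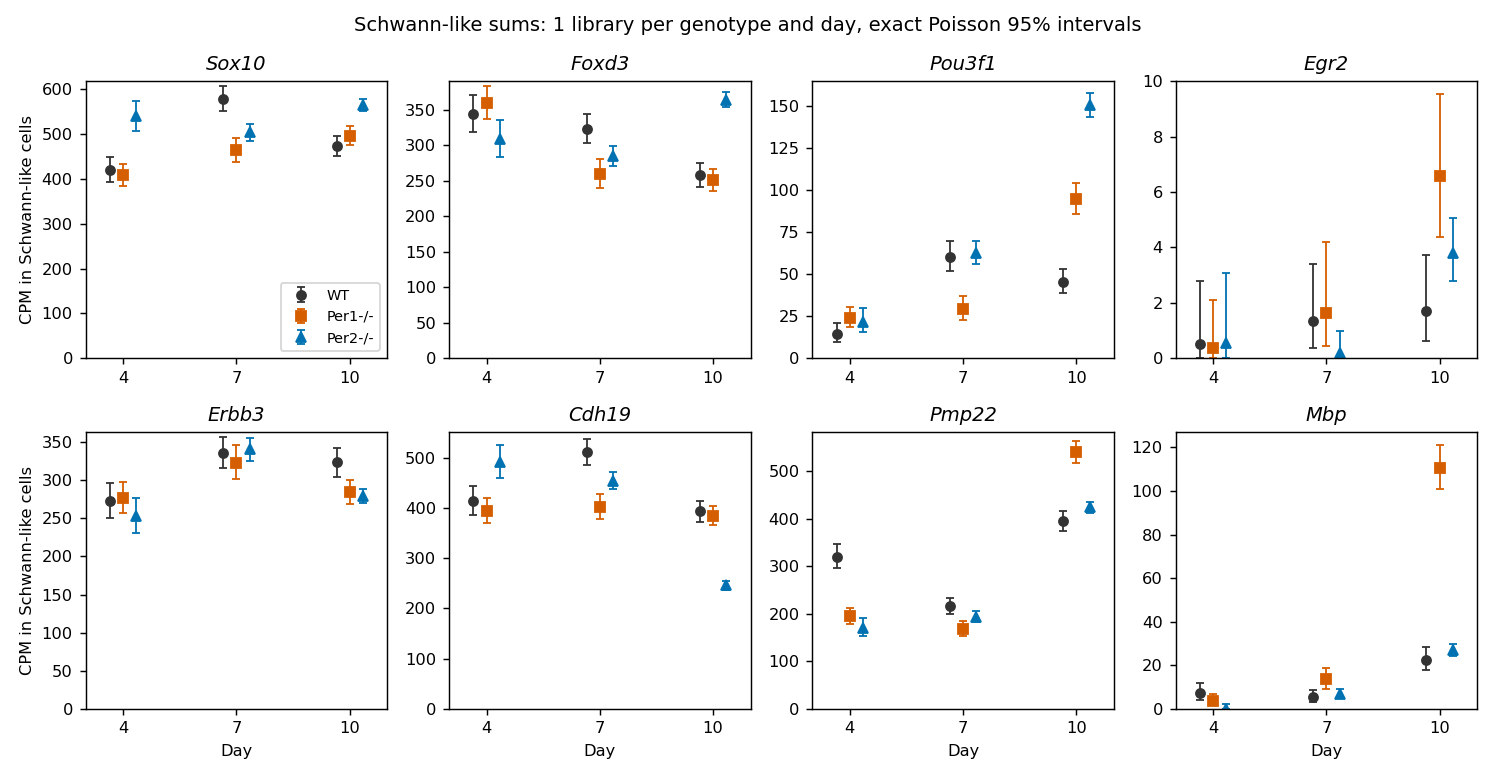
CPM of each of the 8 genes in Schwann-like cells on days 4, 7 and 10, 1 point per genotype and day, with exact Poisson 95% intervals that cover counting error only. Sox10, Foxd3, Erbb3 and Cdh19 stay between 246 and 579 CPM on all days, while Pou3f1, Egr2, Pmp22 and Mbp have their highest library on day 10, with Per1-/- at 111 CPM for Mbp.

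In Schwann-like cells 4 of the 8 genes were called from day 4 to day 10, all of them higher, where 17.0% of 11411 genes were called in either direction and 9.22% were called higher. From day 7 to day 10, Pmp22 and Mbp were called, both higher, against 2.74% and 1.92%. None was called from day 4 to day 7, with Pou3f1 and Erbb3 at an unadjusted p under 0.05 and a background of 0.526%. Between the 2 Schwann-like clusters, Sox10 and Cdh19 were lower in the cycling one in 9 of 9 libraries and Pou3f1 in 7 of 9, while Pmp22 was higher there in 8 of 9 libraries and Mbp in 7 of the 8 with Mbp UMI. For Mbp some of these rest on few UMI, as in WT on day 4 (6 UMI in the cycling cluster, 8 in the larger). Summed over all libraries Mbp was lower in the cycling cluster, at 23.5 CPM against 27.3 CPM. In Per1-/- on day 10 the cycling cluster of 31 cells held 13 of the 28 Egr2 UMI, at 25.6 CPM against 4.01 CPM in the larger cluster. For WT on day 10 Egr2 was at 5.79 CPM against 1.01 CPM, from 3 UMI in each cluster. Per2-/- on day 10 went the other way, at 0.961 CPM in the cycling cluster against 4.76 CPM. Summed over all libraries Egr2 was at 2.32 CPM in the cycling and 2.52 CPM in the larger cluster. On day 10, 183 of 190 Mbp-positive thinned cells had Pmp22, beside 848 of all 945, and 72 of the 190 had Pou3f1, beside 393 of all 945. Levels of other cell types' markers moved with the days in these sums. The macrophage list (16 genes, 5 at 5 CPM or more) was at 14.98 to 44.4 CPM on day 4 and 81.0 to 160.2 CPM on day 10, against 23678 to 31267 CPM in macrophage-like cells. The neuron list (18 genes, 6 at 5 CPM or more, led by Gap43) was at 1701 to 2291 CPM on day 4 and 731 to 1185 CPM on day 10. Gap43 alone was at 1416 to 2009 CPM on day 4 and 438 to 897 CPM on day 10, so the fall of this list was mostly that of Gap43. The astrocyte list (14 genes, 4 at 5 CPM or more, led by Ptprz1 and Fabp7) was at 422 to 557 CPM on day 4 and 869 to 1367 CPM on day 10. The oligodendrocyte list (135 to 178 CPM on day 4, 231 to 276 CPM on day 10) and the chondrocyte list (51.8 to 56.9 CPM, then 128 to 238 CPM) were higher on day 10, and the pericyte and smooth muscle list (257 to 296 CPM, then 126 to 205 CPM) was lower. The fibroblast list (20 genes, 18 at 5 CPM or more) was at 16473 to 17319 CPM on day 4 and 11639 to 19639 CPM on day 10, against 26083 to 46146 CPM in fibroblast-like cells. No gene of the macrophage, neuron, astrocyte or fibroblast list was at 0 in all 9 libraries. Their part in the changes was not tested.

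Genotype made no called difference in Schwann-like cells. By edgeR 0 of the 8 genes were called between Per1-/- and WT (background 0.105%), between Per2-/- and WT (0%) and between Per1-/- and Per2-/- (0%), and DESeq2 and limma-voom also called 0. One gene per contrast had an unadjusted p under 0.05. The difference of Mbp was 1.62 ± 0.48 for Per1-/- against WT (log2, adjusted p = 0.38) and 1.68 ± 0.43 for Per1-/- against Per2-/- (adjusted p = 0.17), and that of Pou3f1 was 0.80 ± 0.35 for Per2-/- against WT (adjusted p = 0.62). Without the filter on low counts these 3 differences were called (adjusted p = 0.00024 for Mbp against WT, 1.7e-05 for Mbp against Per2-/- and 0.037 for Pou3f1). Without the cell of most Mbp the difference of Mbp from WT was 1.26 ± 0.44 (adjusted p = 0.52), and without Per2-/- on day 4 that of Mbp between Per1-/- and Per2-/- was called (adjusted p = 0.030). Over the whole culture 0 of 8 were called in any genotype contrast as well (backgrounds 2.50% for Per1-/- and 0.00532% for Per2-/- against WT, 0.351% between the mutants). Unadjusted p-values under 0.05 were had by 3, 2 and 5 of the genes. By limma-voom 0 were called and by DESeq2 5, Pmp22 for Per1-/- against WT, and Sox10, Foxd3, Erbb3 and Cdh19 for Per1-/- against Per2-/-. In the edgeR fit these were 0.53 ± 0.13 for Pmp22, and -0.89 ± 0.19, -0.85 ± 0.30, -0.64 ± 0.19 and -0.58 ± 0.11 for the other 4.

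The same genes were fitted in the other classes. In neuron-like cells 5 of the 8 genes were called from day 4 to day 10 (background 45.5%). Sox10 (2.93 ± 0.48 on the log2 scale), Erbb3 (1.92 ± 0.60) and Cdh19 (1.49 ± 0.52) rose at levels of at most 4.49 CPM, and Mbp (-0.48 ± 0.09) and Pou3f1 (-0.80 ± 0.27) fell. In fibroblast-like cells 4 were called, all higher (background 20.6%), namely Foxd3 (2.65 ± 0.62), Sox10 (1.76 ± 0.50), Cdh19 (1.01 ± 0.22) and Pmp22 (0.72 ± 0.13). Apart from Pmp22, none of these exceeded 2.70 CPM in a fibroblast-like library. In macrophage-like cells 3 of the 7 genes tested were called (background 14.2%), with Egr2 (1.31 ± 0.26) and Pmp22 (0.51 ± 0.14) higher and Mbp (-1.01 ± 0.14) lower. Over 12 alternatives the call of Sox10 in fibroblast-like cells was lost in 8, that of Pmp22 in macrophage-like cells in 7, and those of Mbp and Sox10 in neuron-like, Pmp22 in fibroblast-like and Mbp in macrophage-like cells in 0. The source of the low levels of Sox10, Foxd3, Erbb3 and Cdh19 outside Schwann-like cells was not tested.

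The difference between classes was tested directly in a fit of class by day with a term for each library. Against fibroblast-like cells 3 genes were called (background 5.60%). The change from day 4 to day 10 was greater in Schwann-like cells by 4.10 ± 0.80 for Mbp (log2, adjusted p = 0.019), and smaller for Foxd3 (-2.96 ± 0.63, adjusted p = 0.025) and Cdh19 (-1.34 ± 0.33, adjusted p = 0.045). Over 11 alternatives these calls were lost in 2, 4 and 7. Against neuron-like cells 6 were called (background 35.3%), with Mbp (3.99 ± 0.80, adjusted p = 0.0026) and Pou3f1 (3.15 ± 0.26, adjusted p = 1.1e-05) greater in Schwann-like cells and Sox10, Erbb3, Cdh19 and Foxd3 smaller. Those of Mbp, Pou3f1 and Sox10 held in all 11 alternatives, and those of Cdh19, Erbb3 and Foxd3 were lost in 1, 2 and 2. Against macrophage-like cells none was called (background 0.504%), with Mbp at 4.53 (adjusted p = 0.058). With doublets kept 5 were called there, with a difference above 0 for Mbp and below 0 for Sox10, Foxd3, Erbb3 and Cdh19, and Mbp was called without WT on day 10 (adjusted p = 0.040). Sox10, Foxd3, Erbb3 and Cdh19 could pass the filter on low counts through Schwann-like sums alone. Their UMI ran from 78 (Foxd3, macrophage-like) to 1465 (Cdh19, fibroblast-like) in these other classes, against 11252 to 19354 in Schwann-like cells. Calls of these 4 genes therefore cannot show a change particular to a class. The rise of Pmp22 was not shown to differ from that of fibroblast-like (0.32 ± 0.26, adjusted p = 0.51), neuron-like (0.15 ± 0.53, adjusted p = 0.86) or macrophage-like cells (0.46, adjusted p = 0.54).

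**Figure D4:**
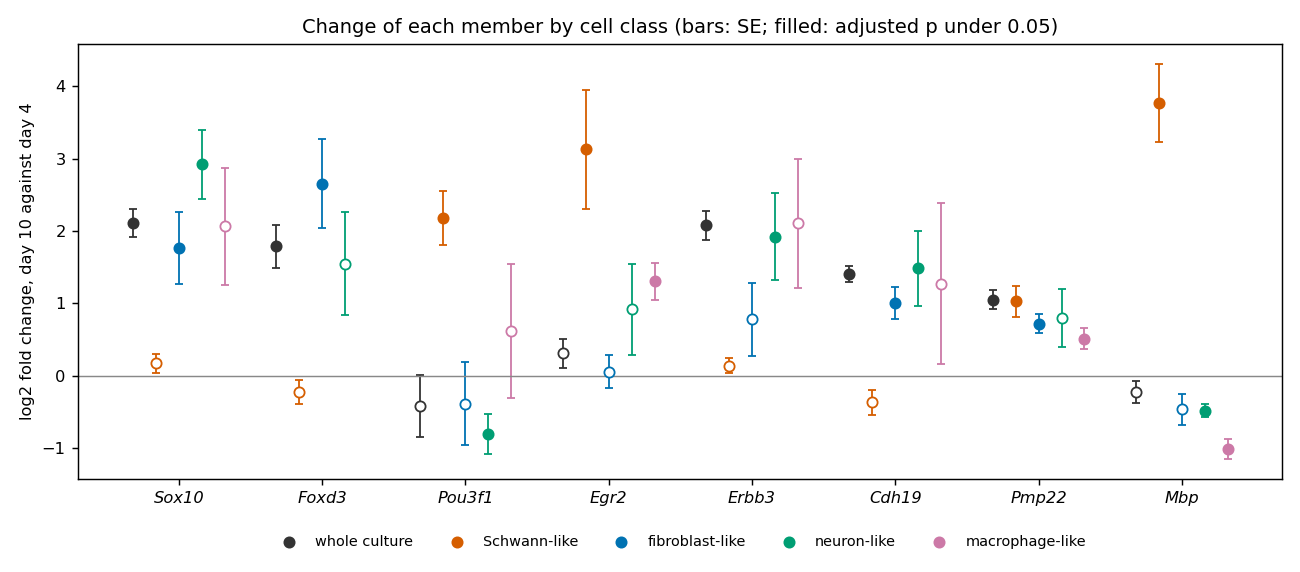
Log2 fold change of each gene from day 4 to day 10 in the whole culture and in 4 cell classes, with SE bars, filled where the adjusted p of edgeR was under 0.05 and open otherwise. Sox10, Foxd3, Erbb3 and Cdh19 are high in the whole culture and between -0.37 and 0.17 in Schwann-like cells, and Mbp is at 3.77 in Schwann-like cells and below 0 in the other classes.

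Further genes of the Schwann lineage were counted in 4 lists written from general knowledge, 71 genes of which 62 were tested in Schwann-like cells. From day 4 to day 10, 13 were higher and 11 lower, where 9.22% of all genes were called higher and 7.82% lower. Among ligands and receptors (17 tested) 5 were higher and 1 lower, with a median log2 change of 0.23 against 0.0044 over all genes tested. Ednrb, the endothelin receptor of neural crest cells, went from 51.8, 54.6 and 88.8 CPM on day 4 to 162, 239 and 271 CPM on day 10 (1.80 ± 0.15), and was also called from day 4 to day 7 (1.33). Lgi4, a secreted factor of peripheral glia that is needed for myelination, fell by 0.81 ± 0.14. Among transcription factors (21 tested) 4 were higher and 1 lower, with a median of -0.03. Egr1 (1.52 ± 0.13), a relative of Egr2 found in non-myelinating Schwann cells, and Sox5 (1.36 ± 0.14) rose, and Nab1, a cofactor of Egr proteins, fell by 0.96.

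Among myelin proteins and lipid enzymes (15 of 20 tested) 4 were higher and 1 lower, with a median of 0.67. Mal, a proteolipid of compact myelin, went from 121, 65.6 and 45.5 CPM on day 4 to 260.0, 266 and 200.1 CPM on day 10 (1.71), and Gjc3, a glial connexin, rose by 0.83. The gene of this list that fell, named after its value was seen, was Gldn, a protein of the node of Ranvier. The repair list, genes that Schwann cells turn on after nerve injury, moved the other way. Of its 10 genes 9 were tested, 8 were lower and 0 higher, and the median was -1.30. Gdnf, a growth factor for motor neurons, fell in every genotype, from 30.2, 36.8 and 36.6 CPM on day 4 to 17.0, 19.98 and 14.8 CPM on day 7 and 10.3, 6.36 and 2.67 CPM on day 10 (-2.62 ± 0.33). Gap43, a growth-associated protein that is also on the neuron list, fell from 1416 to 2009 CPM to 438 to 897 CPM (-1.40 ± 0.23), and Lif, a cytokine, from 5.53 to 9.86 CPM to 0.162 to 1.18 CPM (-3.65 ± 0.77). The ninth gene, Ucn2, gave -0.96 (adjusted p = 0.42), and Shh was not tested. The count of 8 was 2 when cells were taken by 3 naming markers in place of clusters, and 3 to 7 when 1 library was left out, with 3 without Per1-/- or Per2-/- on day 10. From day 7 to day 10 Egr1 (1.03), Mal (1.42), Itga6 (0.51) and Sox5 (0.58) rose, and Gap43 (-1.29), Gdnf (-1.60), Bdnf (-1.66) and Lgi4 (-0.59) fell. No gene of the lists was called between genotypes in Schwann-like cells.

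**Figure D5:**
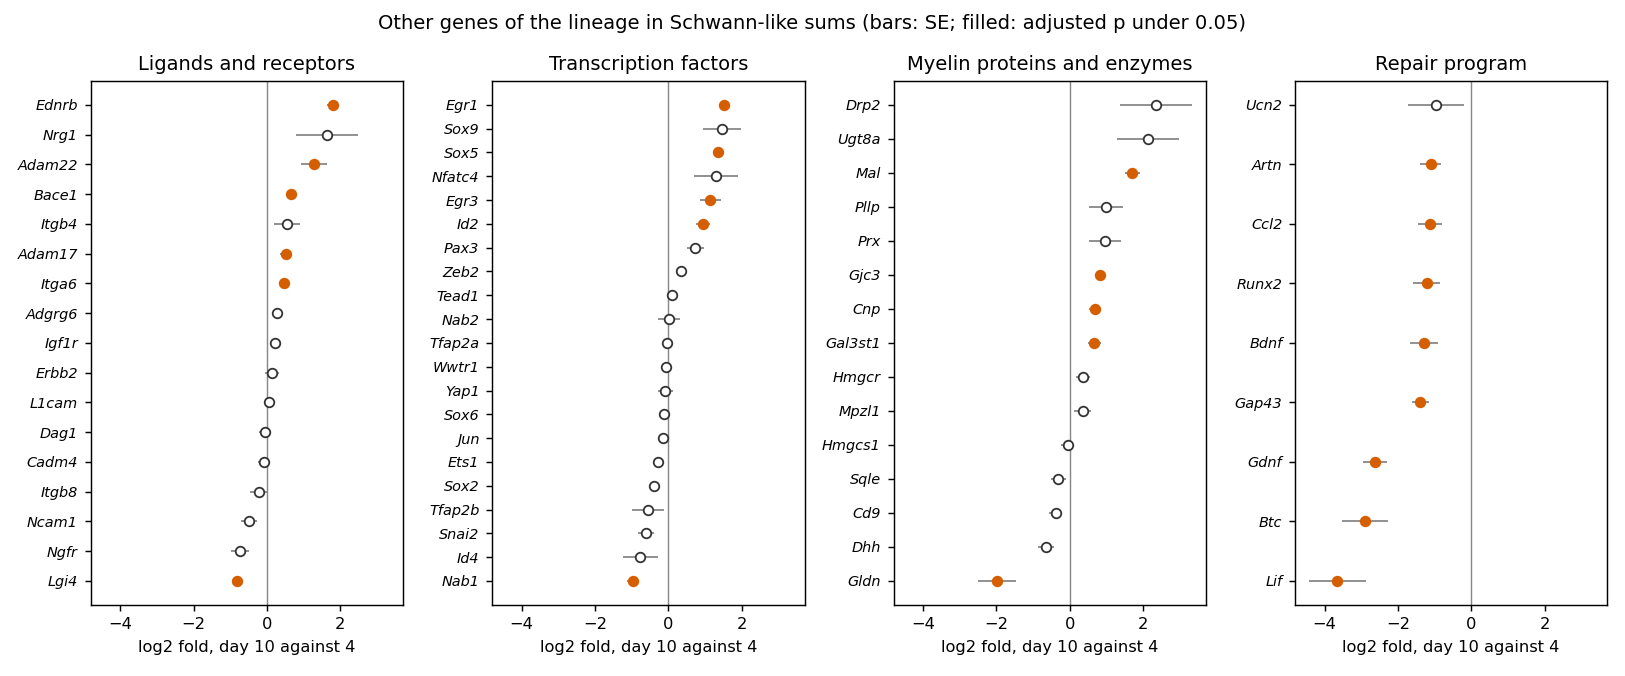
Log2 fold change from day 4 to day 10 in Schwann-like cells of the 62 tested genes of the 4 lists, with SE bars, filled where the adjusted p of edgeR was under 0.05. Filled points lie on both sides of 0 in the first 3 lists, and the 8 filled points of the repair list all lie below 0.

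Genes with the most similar course were sought over 59 sums of a named class in a library, among 13112 genes. These correlations describe how levels vary over classes that share libraries. Sox10 was nearest to Foxd3 (Pearson r = 0.98), Erbb3 (0.97) and Cdh19 (0.97). Foxd3 was nearest to Gm12688 (0.99), Erbb3 (0.99) and Fam89a (0.99). Gm12688 is annotated as a long noncoding RNA at chr4:99653607-99654983 on the minus strand, next to Foxd3 and not overlapping it. Erbb3 was nearest to Foxd3, Gm12688 and the connexin Gjc3 (0.98), and Cdh19 to Lgi4 (0.98), Foxd3 and Fam89a. Pou3f1 was nearest to Kcnh2 (0.92), Rgmb (0.90) and Ythdc1 (0.88), 2 of which were highest in neuron-like cells. The others were nearest to genes highest outside the Schwann-like cells. They were Fcgrt (0.73), Ctsl and Mylip for Egr2 and Tnfaip8 (0.96), Ctbs and Krcc1 for Pmp22, all highest in macrophage-like cells, and Leprotl1 (0.85), Cyld and Rapgef6 for Mbp, all highest in neuron-like cells.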

How the data were processed

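The deposited values were raw UMI counts per gene and barcode, made by the authors with Cell Ranger. Per the file headers, versions 4.0.0 (days 4 and 7) and 6.0.0 (day 10) were used, while the submitters' processing notes name version 7.1 and mm10. Analysis was done in Python 3.11.15 with scanpy 1.11.5 and in R 4.3.3. Of 95603 barcodes, 81999 reached 3000 UMI without exceeding a mitochondrial share of 20%, and 8442 of these were dropped as doublets at 0.8% per 1000 barcodes. The 30406 shared gene identifiers were clustered (2000 variable genes, 30 components, 15 neighbours, Leiden resolution 1). Counts were summed per class and library and tested with edgeR 4.0.16 (TMM, quasi-likelihood, terms for day and genotype, Benjamini-Hochberg adjustment over all genes tested, threshold 0.05). Each SE is the absolute log2 change divided by the square root of the test's F statistic. In simulated Schwann-like sums, 68% of log2 changes of 1 and 98% of those of 2 between Per1-/- and WT were recovered. The simulation had a fixed dispersion and no change between days, and left out genes with few UMI such as Egr2. DESeq2 1.42.0 and limma-voom 3.58.1 were alternatives. Counting intervals are exact at 95%, and floors use 3 counts.

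The genes, lists and tests were chosen with earlier results of these data known. Named were the 8 genes, up to 5 listed genes in each direction and contrast by p, Nrg1, Erbb2, the transduced factors and the 3 nearest genes of each. A few genes that this rule or the marker lists take in are not reported here. The class by day test, the removal of shared barcodes or of the cell with most Mbp and the larger Schwann-like cluster alone were added after seeing the data.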

Additional observations from a re-analysis of the deposited data

Results flagged for a closer look

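The change from day 4 to day 10 differed between Schwann-like cells and another class for 9 pairs of gene and class, by edgeR's test of the difference itself. For Mbp the difference (Schwann-like minus other, log2) was 4.10 against fibroblast-like and 3.99 against neuron-like cells, and for Pou3f1 it was 3.15 against neuron-like cells. Differences in the other direction were -2.96 for Foxd3 and -1.34 for Cdh19 against fibroblast-like cells. Against neuron-like cells they were -2.82 for Sox10, -2.08 for Erbb3, -2.01 for Cdh19 and -1.82 for Foxd3. The levels of Sox10, Foxd3, Erbb3 and Cdh19 behind these last values were at most 4.49 CPM in any fibroblast-like or neuron-like library. These genes could pass the filter on low counts through Schwann-like sums alone, so their differences cannot show a change particular to a class.

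Cells of clusters that received no class name entered no sum of Schwann-like cells, except where cells were taken by 3 naming markers, and count among all cells kept where shares are given. In the shallow WT library of day 10 the 2321 unnamed cells held Sox10 at 10.6 CPM (exact Poisson interval 9.34 to 12.0, 250 UMI), above the 0.127 CPM that a count of 0 allows.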

How the results depend on the processing

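The labels carry no replicate numbers, and the fits held terms for genotype and day. Calls of the 8 genes numbered 11 over the whole culture, against 18 with DESeq2, 5 without the other factor in the fit and 7 to 13 with 1 library left out. In Schwann-like cells they numbered 6, against 13 without the filter on low counts and 2 to 7 with 1 library left out, 2 of them without Per1-/- on day 10. In the other 3 classes they numbered 15, against 24 with doublets kept and 6 to 14 with 1 library left out, with 6 without Per1-/- on day 4 and 9 without Per1-/- on day 10. Genotype calls numbered 0, against 5 with DESeq2 and 0 to 3 over the whole culture (3 without Per1-/- on day 4), and 3 without the filter and 0 to 1 in Schwann-like cells (1 without Per2-/- on day 4). The listed lineage genes gave 24 calls from day 4 to day 10, against 10 by 3 naming markers and 11 to 25 with 1 library left out (11 without Per1-/- on day 10), and the repair list 8, against 2 and 3 to 7. Differences between classes numbered 9, against 12 with doublets kept (1 against fibroblast-like, 6 against neuron-like and 5 against macrophage-like cells) and 4 to 10 with 1 library left out (4 without Per1-/- on day 4, 5 without Per2-/- on day 10). The difference against neuron-like cells for Pmp22 ranged from -0.43 without Per2-/- on day 4 to 0.60, at -0.24 without Per1-/- on day 10, and that for Pou3f1 against macrophage-like cells from -0.67 without Per1-/- on day 4 to 2.08, none of them called. The slope of the Schwann-like share stayed between 0.463 and 1.03. The cause of these shifts was not tested. With 1 library per genotype and day, and 111 to 1014 Schwann-like cells in each, Egr2 and early Mbp rest on too few UMI to rank genotypes.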

Other observations

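Gfra3, a receptor for artemin, had served to name the Schwann-like clusters and was therefore not tested. In Schwann-like cells it was at 15.5 to 36.8 CPM on day 4, 43.3 to 75.8 CPM on day 7 and 108 to 163 CPM on day 10, so that the libraries of the 3 days did not overlap.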
